A study of Mus musculus with 2 samples.

Results

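The genes described here encode the enzymes that handle ketone bodies, and they were followed in RNA-seq of round spermatids, the haploid cells that mouse meiosis leaves behind before the sperm head elongates. The 6 genes are Oxct1, Oxct2a, Oxct2b, Bdh1, Bdh2 and Acat1, chosen by symbol out of 23234 genes in the table. The set was drawn up with expression values of these libraries already known, Oxct2a and Oxct2b being among the genes with the largest rises, so the values of the 6 genes are a description and no test supports the choice. All 6 symbols had a value, and 5 of the 6 had a mean of 1 FPKM or more over both libraries, the level called expressed here (10438 genes in all). FPKM counts sequenced fragments per length of transcript and per total of mapped fragments, so levels can be compared between genes.

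The first library came from mice labelled Epc-dKO, deficient for both Epc1 and Epc2, and the second from wild-type (WT) mice. Both were of the C57BL/6 strain. The proteins of Epc1 and Epc2 belong to NuA4/TIP60, a complex that acetylates histones. The sources used here do not give the alleles, any Cre driver, the ages, how many animals were pooled or how the spermatids were purified. With 1 library per genotype there is no replicate spread, no p-value is given, and a difference was counted only past 2-fold on log2((FPKM + 1)/(FPKM + 1)), the library labelled Epc-dKO over the WT library. This scale understates the change of genes with low values. The read depth is unknown. Epc1 had 13.6 FPKM in the library labelled Epc-dKO and 11.4 in the WT library, and Epc2 had 10.5 in the library labelled Epc-dKO and 7.12 in the WT library. Neither targeted transcript was therefore reduced; the deleted exons are not given, so a gene-level value does not check the label.

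Ketone bodies, mainly 3-hydroxybutyrate and acetoacetate, are made in the liver from fatty acids and burned in the mitochondria of other tissues. Bdh1 oxidises 3-hydroxybutyrate to acetoacetate. Succinyl-CoA:3-oxoacid CoA transferase (SCOT), the committed step of ketone use, moves coenzyme A from succinyl-CoA to acetoacetate, and a thiolase such as Acat1 then splits the product into acetyl-CoA for the citric acid cycle. Mice have a somatic SCOT gene, Oxct1, and a pair of testis genes, Oxct2a and Oxct2b, whose proteins are known from haploid germ cells and sperm.

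Oxct2a and Oxct2b lie on chromosome 4 and are single-exon genes in GENCODE, with transcripts of 1760 and 1735 nt. Oxct2a lies inside intron 3 of Bmp8a and Oxct2b inside intron 3 of Bmp8b, each on the strand of its host and with 0 nt of overlap with the host's exons. The other enzyme genes are spread over chromosome 15 (Oxct1), 16 (Bdh1), 3 (Bdh2) and 9 (Acat1) and have longest transcripts of 3134 to 3527 nt. The stretches around the starts of the pair are shown because these genes differed most of the 6 between the libraries. They come from RefSeq (GRCm38.p6) and run from 250 bases before to 50 bases after each annotated start, with the letters TGACG in capitals. This is the half-site of the cAMP response element (CRE), the element that CREM, an activator of spermatid genes, binds.
Oxct2a, chr4:123323630-123323929, minus strand: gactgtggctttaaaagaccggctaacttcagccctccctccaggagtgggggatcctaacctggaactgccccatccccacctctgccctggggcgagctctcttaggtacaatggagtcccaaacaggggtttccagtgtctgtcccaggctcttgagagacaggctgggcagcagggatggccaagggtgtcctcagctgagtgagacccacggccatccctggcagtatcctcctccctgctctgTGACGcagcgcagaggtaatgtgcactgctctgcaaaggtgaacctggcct
Oxct2b, chr4:123115998-123116297, plus strand: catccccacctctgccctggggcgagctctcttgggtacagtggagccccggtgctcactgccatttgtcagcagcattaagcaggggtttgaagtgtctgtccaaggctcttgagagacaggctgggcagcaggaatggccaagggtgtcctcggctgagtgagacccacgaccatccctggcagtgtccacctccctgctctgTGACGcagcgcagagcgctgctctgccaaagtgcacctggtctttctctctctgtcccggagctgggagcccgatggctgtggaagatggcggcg

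The promoters of the pair were close copies. A local alignment placed 219 bases of each side by side, outside gaps of 37 bases in all, and 93.2% of them were identical. Each held TGACG once, within the same stretch of 28 bases, cctccctgctctgTGACGcagcgcagag. The half-site began 1 base upstream of the annotated start in Oxct2a and 45 bases upstream in Oxct2b, so the annotated starts are offset between the copies. TGACG, searched on both strands, occurred in 20.8% of 32851 mouse promoters of the same length, and the full element TGACGTCA, which contains it, in 1.79%. The full element, CCAAT (37.4% of promoters) and TATAAA (13.6%), also searched on both strands, were not in either window. Promoters were matched for 5 of the 6 genes, and among the windows of Oxct1, Bdh1 and Bdh2 the search found CCAAT in that of Bdh2 and no other of these letters. A match of letters describes the window and does not show a bound site.

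Both testis SCOT genes were higher in the library labelled Epc-dKO. Oxct2a had 19.5 FPKM in the library labelled Epc-dKO and 4.08 in the WT library, a ratio of 4.77 and a log2 ratio of 2.01 on the FPKM + 1 scale. Oxct2b had 21.5 FPKM in the library labelled Epc-dKO and 3.90 in the WT library, a ratio of 5.50 and a log2 ratio of 2.20. The copies were at nearly the same level as each other in each library, with Oxct2b at 1.10 times Oxct2a in the library labelled Epc-dKO and 0.957 times in the WT library. Among expressed genes 74 had a larger log2 ratio than Oxct2a and 63 a larger one than Oxct2b. At least 2-fold higher values were found in 2.75% of all expressed genes and at least 4-fold higher ones in 0.728%. Since this difference drew the pair into the set, nothing is read from their place against that background.

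**Figure D1:**
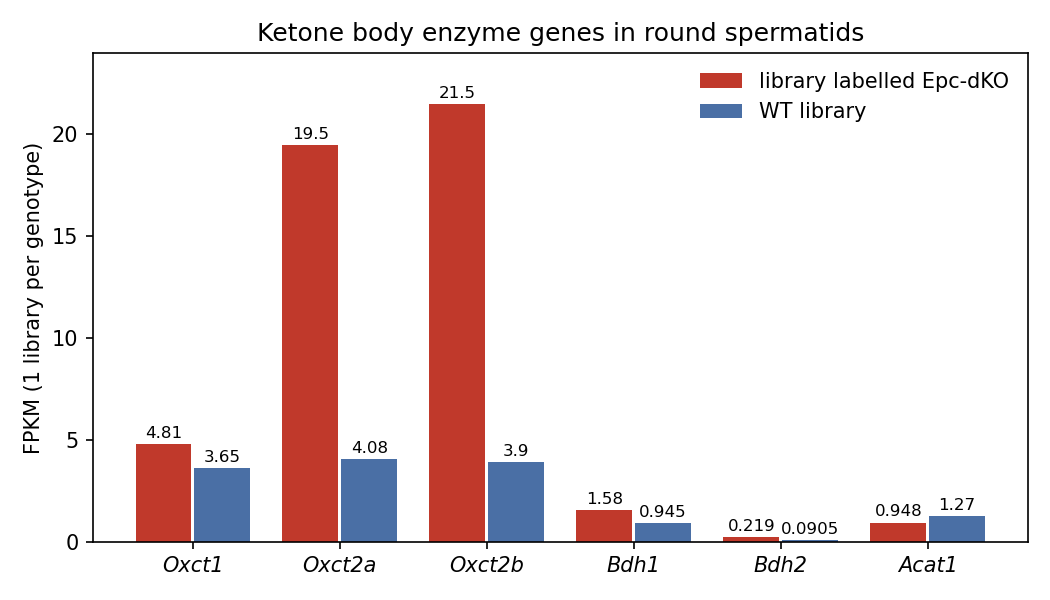
FPKM of the 6 ketone body enzyme genes, with 1 bar for the library labelled Epc-dKO (left of each pair) and 1 for the WT library (right), and no error bars since each genotype had 1 library. Oxct2a and Oxct2b stand at 19.5 and 21.5 FPKM in the library labelled Epc-dKO, against 4.08 and 3.90 in the WT library, while each of the other genes stays below 5 FPKM in both.

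The copies are similar enough for reads to be assigned to the wrong one. Their GENCODE transcripts were identical at 98.0% of 1735 aligned bases, and the longest identical run was 379 bases. Of all windows of 50 bases in Oxct2a, 41.7% also occurred in Oxct2b, and of windows of 100 bases 25.9% did. The read length and the treatment of multiply mapped reads are not given, so the split between the copies is uncertain and their sum is the safer value. Oxct2a and Oxct2b together had 40.9 FPKM in the library labelled Epc-dKO and 7.98 in the WT library, a ratio of 5.13 and a log2 ratio of 2.22. The only other gene in GENCODE whose transcripts shared a window of 50 bases with the pair was Gm17244, annotated on the strand opposite Oxct2b over 499 nt; it has no value in the table. The library kit was directional, but the strand setting of the authors' counting is not given, so reads of such an antisense transcript could not be told apart from those of Oxct2b.

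Somatic SCOT differed far less. Oxct1 had 4.81 FPKM in the library labelled Epc-dKO and 3.65 in the WT library, a log2 ratio of 0.32, within 2-fold. Its transcript was 72.5% identical to that of Oxct2a over the aligned bases and shared 0 windows of 50 bases with either testis gene, with a longest common run of 18 bases, so exact sharing of reads does not link its value to theirs. On the GENCODE annotation Oxct1 also overlaps BC037032 and Gm15632 on the opposite strand. In the WT library the SCOT genes were at like levels, Oxct2a at 1.12 times and Oxct2b at 1.07 times Oxct1. In the library labelled Epc-dKO they were apart, at 4.04 and 4.46 times Oxct1. The testis pair thus made up 89.5% of the summed SCOT FPKM in the library labelled Epc-dKO and 68.6% in the WT library. No scaling of a whole library can alter this share. The treatment of reads shared by the copies, which is not given, could alter it and the ratios to Oxct1. The summed level of all 3 SCOT genes was 45.8 FPKM in the library labelled Epc-dKO and 11.6 in the WT library, a log2 ratio of 1.89.

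The enzymes before and after SCOT were low in both libraries and stayed within 2-fold. Bdh1, the mitochondrial 3-hydroxybutyrate dehydrogenase, had 1.58 FPKM in the library labelled Epc-dKO and 0.945 in the WT library (log2 ratio 0.41). On the GENCODE annotation Bdh1 overlaps Gm15743 on the opposite strand over 1901 nt. Acat1, the mitochondrial acetoacetyl-CoA thiolase, had 0.948 FPKM in the library labelled Epc-dKO and 1.27 in the WT library (log2 ratio -0.22). Bdh2, a cytosolic dehydrogenase also called Dhrs6, was not counted as expressed, with 0.219 FPKM in the library labelled Epc-dKO and 0.0905 in the WT library. Its log2 ratio of 0.16 and its plain ratio of 2.41 differ because the added 1 FPKM outweighs both values. In all, 2 of the 5 expressed enzyme genes were at least 2-fold higher and 0 were at least 2-fold lower; over all expressed genes the shares were 2.75% and 1.88%, and their log2 ratios had a median of -0.05 and quartiles at -0.34 and 0.24.

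**Figure D2:**
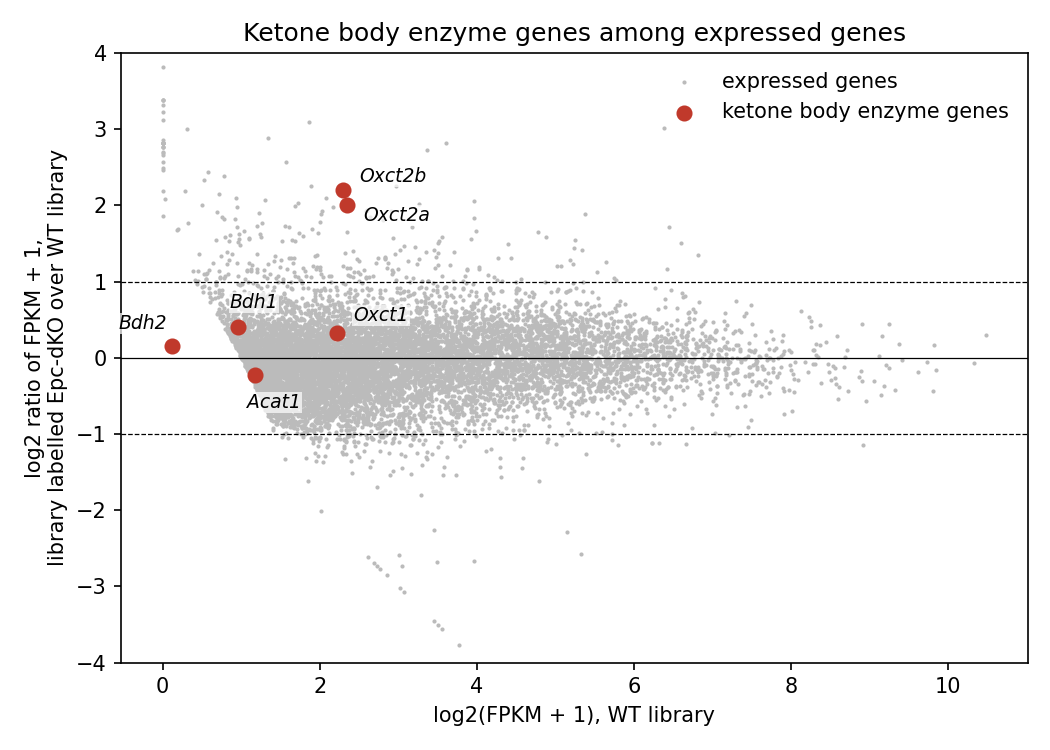
Log2 ratio of FPKM + 1, the library labelled Epc-dKO over the WT library, against log2(FPKM + 1) in the WT library, for 10438 expressed genes (grey) and the 6 ketone body enzyme genes (red); dashed lines mark 2-fold, and 67 grey genes with ratios beyond 4 or below -4 lie outside the axis. Oxct2a and Oxct2b lie at 2.01 and 2.20, above the upper dashed line, and the other enzyme genes lie between -0.22 and 0.41.

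The order of levels also differed. In the library labelled Epc-dKO it ran Oxct2b, Oxct2a, Oxct1, Bdh1, Acat1 and Bdh2, from 21.5 to 0.219 FPKM. In the WT library it ran Oxct2a, Oxct2b, Oxct1, Acat1, Bdh1 and Bdh2, from 4.08 to 0.0905 FPKM. Without replicates no neighbours in either order can be told apart by their spread. Over all genes of the table, Oxct2a stood at the percentile of 90.4 in the library labelled Epc-dKO and 74.3 in the WT library, and Oxct2b at 91.0 in the library labelled Epc-dKO and 73.6 in the WT library.

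No gene around the pair that has a value showed a rise like that of the pair. The host Bmp8a had 0.158 FPKM in the library labelled Epc-dKO and 0.150 in the WT library, and the host Bmp8b had 0.293 in the library labelled Epc-dKO and 0.303 in the WT library. These genes encode bone morphogenetic proteins with roles in mouse germ cells, and their exons flank the SCOT copies. Of the 3 annotated genes on each side of each copy, 7 of 12 had a value in the table, hosts included. Of these 7, the expressed ones were Macf1, Ppie and Hpcal4. Macf1, next to Oxct2a, had a log2 ratio of -0.20. Ppie, next to Oxct2b, and Hpcal4, the gene after Ppie, had -0.18 and -0.16. Hpcal4, a neuronal calcium sensor gene, was the most abundant neighbour, with 5.37 FPKM in the library labelled Epc-dKO and 6.13 in the WT library. On the FPKM + 1 scale none of the 7 was past 2-fold, and neither were 95.4% of all expressed genes. The hosts, D830031N03Rik and Nt5c1a were not counted as expressed, and this scale understates changes at such levels. D830031N03Rik had 0.503 FPKM in the library labelled Epc-dKO and 1.03 in the WT library. Nt5c1a had 0.0272 in the library labelled Epc-dKO and 0.0600 in the WT library.

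**Figure D3:**
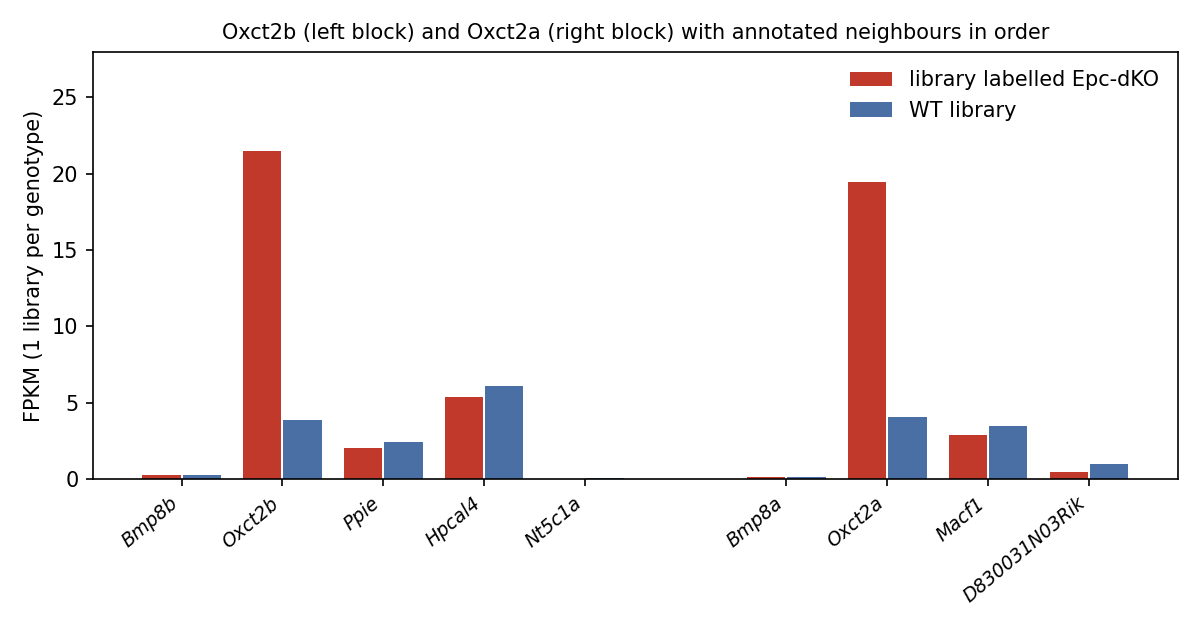
FPKM of Oxct2b (left block) and Oxct2a (right block) and of those of their 3 annotated neighbours on each side that have a value, in chromosomal order and not to genomic scale; each gene has a bar for the library labelled Epc-dKO (left) and the WT library (right). The copies reach 21.5 and 19.5 FPKM in the library labelled Epc-dKO, while their hosts Bmp8b and Bmp8a stay below 0.31 FPKM in both.

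Most single-exon genes did not share the difference, and neither did most expressed genes of any kind, of which 2.75% rose by 2-fold or more. Of 227 expressed single-exon protein-coding genes 13, or 5.73%, rose by 2-fold or more, the pair included, against 1.89% of 8444 with more exons. The pair was chosen for its rise and adds to the first of these 2 shares. The median log2 ratio was -0.05 in single-exon genes and -0.06 in the others. Ubqlnl, a ubiquilin-like gene, had the largest rise of the 13, with 30.2 FPKM in the library labelled Epc-dKO and 2.65 in the WT library; Tssk6, a testis serine kinase gene, had 6.51 in the library labelled Epc-dKO and 2.55 in the WT library. Ubqlnl and Tssk6 were named here after their values were seen. Among genes with a WT level within 2-fold of the mean of the pair (3.99 FPKM), 2.02% of 4317 were at least 2-fold higher, and among protein-coding genes with a longest transcript of 1500 to 2000 nt 2.83% of 813 were.

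The expression pattern closest to the mean of the pair, by Euclidean distance in log2(FPKM + 1) over the 2 libraries, was that of Arl9, an ARF-like GTPase gene (distance 0.30). It had 22.2 FPKM in the library labelled Epc-dKO and 5.06 in the WT library. Osgin1 (0.30), Cntfr (0.34), Cacnb1 (0.43) and Fscn3 (0.51) came next, with log2 ratios of 1.98, 2.09, 1.65 and 2.25. With 2 libraries this closeness means only that both levels were alike.

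The 3 genes of cytosolic acetoacetate use, Aacs, Acat2 and Acat3, were all expressed and all below 0, with a median of -0.32, against -0.05 over all expressed genes. Here and in the pathway lists that follow 0 genes were past 2-fold; 95.4% of all expressed genes were inside that bound, so these counts do not set the lists apart. Acat3, a close copy of the cytosolic thiolase gene Acat2, was by far the most abundant thiolase gene examined, with 36.7 FPKM in the library labelled Epc-dKO and 46.2 in the WT library. It stood at 38.7 times Acat1 in the library labelled Epc-dKO and 36.4 times in the WT library. Acat2 had 4.56 FPKM in the library labelled Epc-dKO and 6.38 in the WT library. Acat2 and Acat3 transcripts were identical at 97.7% of aligned bases, and 45.9% of the windows of 50 bases in Acat2 also occurred in Acat3, so their split is uncertain. Their sum was 41.2 FPKM in the library labelled Epc-dKO and 52.6 in the WT library, and Acat1 shared 0 such windows with either.

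Ketone bodies cross membranes through monocarboxylate transporters. Of 7 genes for these and their partner proteins 4 were expressed, 0 were past 2-fold, and the median log2 ratio was -0.03. Slc16a7, for the high-affinity transporter MCT2, had 131 FPKM in the library labelled Epc-dKO and 92.6 in the WT library (0.49). Bsg, for the transporter chaperone basigin, had 134 FPKM in the library labelled Epc-dKO and 113 in the WT library (0.24). Slc16a1, for MCT1, had 0.920 FPKM in the library labelled Epc-dKO and 1.64 in the WT library (-0.46). Slc16a3, for MCT4, had 1.85 FPKM in the library labelled Epc-dKO and 2.52 in the WT library (-0.31).

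Genes of the citric acid cycle, which supplies the succinyl-CoA that SCOT uses and burns its acetyl-CoA, were all expressed. Of the 17, 12 lay below 0 and 0 were past 2-fold, with a median of -0.27. Sucla2, for a subunit of succinyl-CoA synthetase, was the most abundant, with 82.2 FPKM in the library labelled Epc-dKO and 101 in the WT library. The largest differences were those of Idh3g, an isocitrate dehydrogenase subunit gene (-0.79), and Mdh2, for malate dehydrogenase (-0.76). Of 17 fatty acid oxidation genes 12 were expressed, 8 of them below 0 and 0 past 2-fold, with a median of -0.20. Cpt1b, for a carnitine palmitoyltransferase, had 90.7 FPKM in the library labelled Epc-dKO and 102 in the WT library. Hadha, for the trifunctional protein, had 61.5 FPKM in the library labelled Epc-dKO and 43.3 in the WT library, and the largest differences were in Acadvl (-0.81) and Etfa (-0.72). Of 6 regulators of ketone metabolism 1 was expressed, the mitochondrial deacetylase gene Sirt3, with 11.7 FPKM in the library labelled Epc-dKO and 14.1 in the WT library.

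A list of other energy enzyme paralogs known from the testis was set beside the Oxct2 pair. Of these, Cpt1b is not confined to the testis. All 11 listed genes were expressed and 0 were past 2-fold, which 95.4% of all expressed genes also were not. They had a median log2 ratio of 0.10 and a range of -0.38 to 0.75. Ldhc, for testis lactate dehydrogenase, had 391 FPKM in the library labelled Epc-dKO and 466 in the WT library. Gapdhs, for the sperm glycolytic enzyme, had 187 FPKM in the library labelled Epc-dKO and 112 in the WT library (log2 ratio 0.73). Acsbg2, for a testis acyl-CoA synthetase, had 54.3 FPKM in the library labelled Epc-dKO and 32.0 in the WT library (0.75). Gapdhs and Acsbg2 also stand among the spermatid markers given below, and Cpt1b among the fatty acid oxidation genes. Of the single-exon paralogs in the list, Gk2 and Pdha2 had log2 ratios of -0.38 and -0.10, and Aldoart2, Pgk2, Gykl1 and Aldoart1 had 0.10, 0.17, 0.18 and 0.50.

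Markers of the labelled cell type were looked up, since the Oxct2 pair is known from haploid cells. All 15 round spermatid markers were expressed, among them the acrosomal gene Acrv1 with 62.7 FPKM in the library labelled Epc-dKO and 60.8 in the WT library, and 0 were past 2-fold (median 0.04). Of 15 spermatocyte markers 14 were expressed too. Stag3 had 130 FPKM in the library labelled Epc-dKO and 122 in the WT library, and Syce1 had 115 in each. They were the most abundant of that list, and others were far lower. Sycp3 had 8.41 FPKM in the library labelled Epc-dKO and 10.1 in the WT library, and Dmc1 had 0.762 and 2.19. Summed levels in the same order were 381 and 373 FPKM for spermatocyte markers and 953 and 919 for round spermatid markers. How much of this RNA came from spermatocytes was not tested. Genes listed as markers of elongating spermatids, the next stage, mostly moved the same way as the pair. Their RNA alone does not show that cells of that stage were present. Of these genes 9 of 15 rose and 0 fell past 2-fold, beside 2.75% and 1.88% of all expressed genes. Their median was 1.17, with a summed level of 2197 FPKM in the library labelled Epc-dKO and 850 in the WT library. Prm2, for protamine 2, had 675 FPKM in the library labelled Epc-dKO and 82.8 in the WT library. Tnp2, for a transition protein, had 153 FPKM in the library labelled Epc-dKO and 40.5 in the WT library. In the other direction, within 2-fold, lay Prm3 (-0.45), a protamine-like gene, and Hils1 (-0.52), for a spermatid linker histone. This list was written with the rise of protamine genes in these libraries known and is no independent evidence. The part of a different mixture of spermatid stages in the difference of Oxct2a and Oxct2b was not tested, and in bulk samples a different number of cells of a stage and a different amount of RNA per cell cannot be told apart.

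Of the markers of other testis cells, 0 rose past 2-fold, and the counts that fell stand beside 1.88% lower among all expressed genes. Of 15 spermatogonial markers 12 were expressed, all below 0 with a median of -0.75; 2 fell, Dmrt1 (-1.29) and Crabp1 (-1.07), and the summed level was 21.0 FPKM in the library labelled Epc-dKO and 44.8 in the WT library. Gfra1, Sall4, Lin28a and Ret reached the expressed level only through the WT library. Id4, not counted, was higher, with 1.14 FPKM in the library labelled Epc-dKO and 0.630 in the WT library (0.39). Sohlh1 and Nanos3, also not counted, lay below 0. With no minimum level the spermatogonial median was -0.72. Spermatocyte markers had 14 of 15 expressed, a median of -0.00, 1 that fell (Tex101) and summed levels of 381 FPKM in the library labelled Epc-dKO and 373 in the WT library. Sertoli cell markers had 3 of 15 expressed, a median of -0.51 and summed levels of 10.2 FPKM in the library labelled Epc-dKO and 16.7 in the WT library. Among them Sox9 was at 0.180 FPKM in the library labelled Epc-dKO and 0.192 in the WT library, and Fshr was listed at 0 in the WT library. Leydig cell markers had 9 of 10 expressed, a median of -0.12, 1 that fell (Insl3) and summed levels of 27.7 FPKM in the library labelled Epc-dKO and 36.2 in the WT library. Peritubular and blood cell markers had 4 of 12 expressed and a median of -0.46. Their summed levels were 10.4 FPKM in the library labelled Epc-dKO and 15.9 in the WT library. The globin genes Hbb-b1 and Hba-a1 were listed at 0 in both libraries, which does not by itself show that blood RNA was absent. The part of these cells in the values of Oxct1, Bdh1 and Acat1 was not tested.

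**Figure D4:**
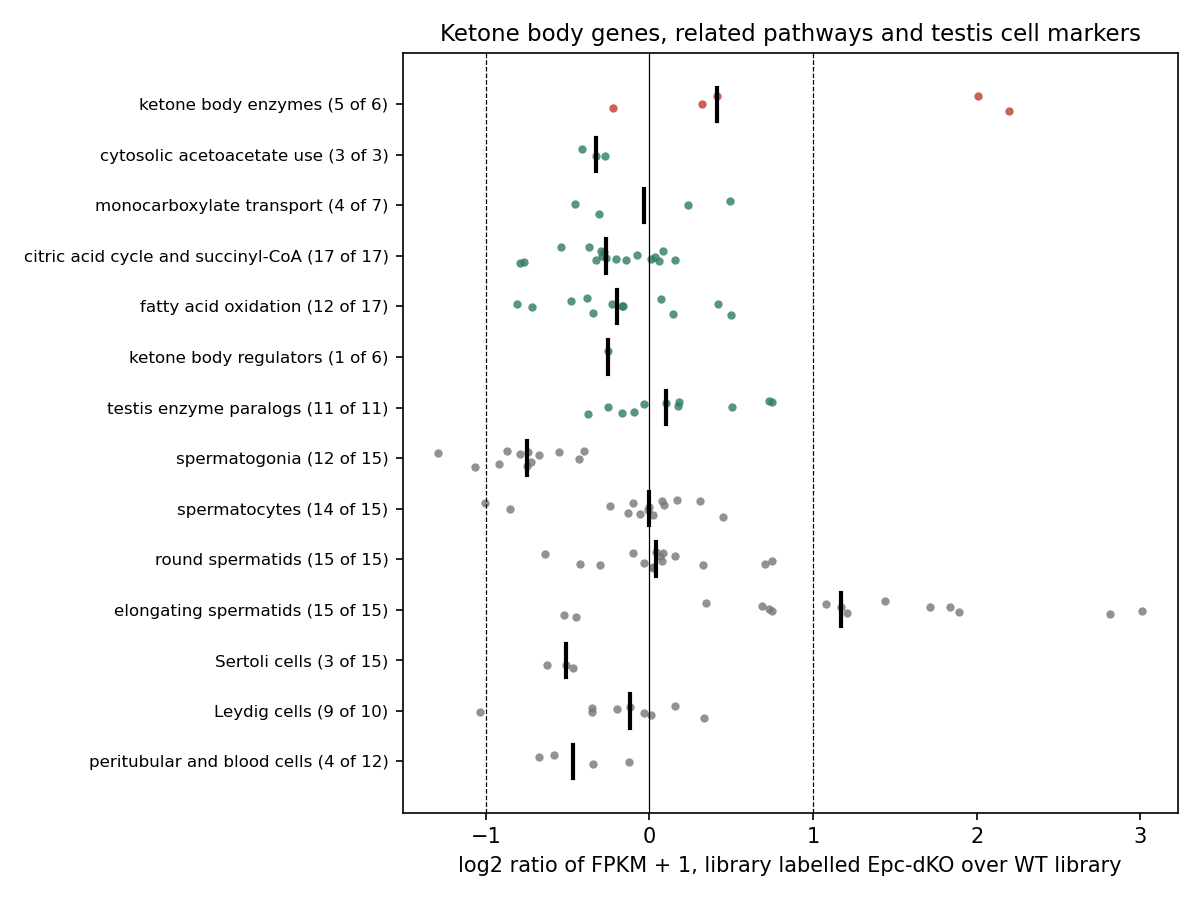
Log2 ratio of FPKM + 1, the library labelled Epc-dKO over the WT library, for the expressed genes of each list (points, spread vertically for clarity; black bars are medians; labels give expressed of listed genes; dashed lines mark 2-fold). Past the upper dashed line lie Oxct2a and Oxct2b among the ketone body enzymes and 9 elongating spermatid markers, while 0 genes of the other pathway lists pass it.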

How the data were processed

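RNA-seq was made from total RNA of round spermatids, with 1 library per genotype; per the labels' protocols, a directional NEBNext kit with PCR was used before Illumina sequencing. The authors deposited FPKM, 1 value per gene and library. The tool was Cufflinks 2.2.1 and the build mm9, per the submitters' processing notes; aligner, annotation, strand setting and scaling between libraries are not given in those sources. The table has 23235 rows, of which 1 names no gene and was left out. FPKM summed to 198081 in the library labelled Epc-dKO and 193611 in the WT library. Depth is unknown, so no counting interval is given.

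Genotype labels grouped the libraries. Ratios used a pseudocount of 1, and genes with a mean of 1 FPKM or more were counted. The 6 genes and all lists were chosen with earlier results of these data known; 166 of 167 list entries matched a symbol, 3 through older symbols. Named were the 6 genes, in each pathway list the 2 most abundant and 2 most changed, the 3 annotated neighbours on each side of the pair, and the 5 genes of nearest pattern, leaving out small RNA, predicted and Rik symbols from the last; others were named after their values were seen. Some genes of these lists, and the list of ketone synthesis, are not reported here. Transcripts and exons were looked up in GENCODE M21 (GRCm38, not mm9), which matched 89.2% of expressed genes; neighbours and promoters came from RefSeq GRCm38.p6. Alternatives were pseudocounts of 0.1 and 0.5, 4 rescalings, other minimum levels and a 4-fold rule. Python 3.11.15, NumPy 2.4.6, pandas 2.3.3, Biopython 1.88 and Matplotlib 3.10.9 were used.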

Additional observations from a re-analysis of the deposited data

How the results depend on the processing

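Oxct2a, Oxct2b and their sum kept their direction and stayed past 2-fold under both other pseudocounts and all 4 rescalings, with log2 ratios of 1.97 to 2.23, 2.15 to 2.43 and 2.18 to 2.34. Oxct1 (0.29 to 0.39), Bdh1 (0.38 to 0.69), Bdh2 (0.15 to 0.74) and Acat1 (-0.38 to -0.19) stayed within 2-fold. A pseudocount cannot turn a direction, and no rescaling shifted the all-gene median by more than 0.05, so this says little about replicate error. The background counts of genes higher and lower depended more on the setting: 433 and 652 with 0.1 as pseudocount, 364 lower with 0.5, 545 and 1054 at the sum of the TPM scale, 166 and 105 with a mean of 5 FPKM or more and 76 and 59 under the 4-fold rule, against 287 and 196. Higher genes were 59.4% of those past 2-fold, but 39.9% and 48.7% with pseudocounts of 0.1 and 0.5 and 34.1% on the TPM scale. On the TPM scale the medians of monocarboxylate transport and fatty acid oxidation genes were -0.44 and -0.33, and those of spermatogonial, Sertoli and peritubular and blood markers -1.06, -0.65 and -0.71. With a pseudocount of 0.1 these 3 marker medians were -1.14, -0.73 and -0.64, and with 0.5 the first 2 were -0.94 and -0.63. With no minimum level the Sertoli and the peritubular and blood medians were -0.19 and -0.27, since genes near 0 enter. The 4-fold rule and the higher minimum count fewer genes by construction. A smaller pseudocount widens ratios by construction, most of all at low levels. The TPM scale raises all values while the pseudocount and the minimum stay at 1. It therefore acts much like a smaller pseudocount and also lets more genes past the minimum. Lists with fewer than 3 expressed members gave no median. No paired analysis was possible because there is 1 library of each genotype. Not knowing the depth limits what can be said of Bdh1, Bdh2 and Acat1.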
